A study of Homo sapiens with 24 samples.

Results

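The 59 genes described here build and run the DNA replication machinery of S phase. They were chosen by name, from origin licensing to nucleotide synthesis, and all 59 were found once in each of the 2 comparison tables of this study, which list 13025 genes for DMSO and 58780 for TPA. All 59 had an adjusted p-value in both tables, so none was lost to a filter on low values. By role they were 9 origin licensing genes, 12 genes of the replicative helicase, 9 polymerase and primase subunits, the sliding clamp PCNA with the 5 subunits of its loader, and 6 genes of single-strand binding and Okazaki fragment processing. A further 6 genes supply nucleotides or remove uracil, 4 act in chromatin assembly and histone mRNA handling, 4 encode E2F factors and E cyclins, and 3 act in the replication checkpoint, fork protection and CDT1 destruction.

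Before S phase, the origin recognition complex (ORC), CDC6 and CDT1 load the ring of MCM2 to MCM7 onto DNA, and geminin (GMNN) keeps CDT1 from doing so again. CDC45 and the GINS complex then turn that ring into the active helicase. Polymerases alpha, delta and epsilon copy the strands, delta and epsilon on the PCNA clamp. Enzymes such as thymidylate synthase (TYMS) and ribonucleotide reductase (RRM1, RRM2) supply the nucleotides. Many of these genes are transcribed in G1 and S phase under E2F factors, so their mRNA levels in a cell population vary with how many of its cells are cycling, and proliferating T cells express the set strongly.

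The study lowered PRKCQ, which encodes protein kinase C theta, a kinase downstream of the T cell receptor, in 2 cutaneous T cell lymphoma lines. MyLa is a mycosis fungoides line and HuT 78 a Sézary syndrome line. Each line gave 4 groups of 3 libraries: NTC (non-targeting control) with DMSO, shPRKCQ with DMSO, NTC with TPA and shPRKCQ with TPA. DMSO was the vehicle, and TPA, a phorbol ester and protein kinase C activator, was given at 10 ng/ml, both for 24 h. The knockdown used doxycycline (1 µg/ml, 72 h or longer before treatment), and no label states if the NTC cells had the drug as well, so the drug and the hairpin cannot be told apart. The labels name no clone, pool or number of hairpins. Each table compares 6 shPRKCQ with 6 NTC libraries of both lines together for 1 treatment, and a value cannot show whether the lines differ. For every gene the tables give its log2 fold change with raw and adjusted p-values, and no value per library. Levels in single libraries, sequencing depth and the effect of TPA itself are therefore not analysed here.

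No header states the direction of the fold change. The authors' deposited tables list PRKCQ at -2.11 in DMSO and -2.08 in TPA, 23.1% and 23.7% of NTC, so negative values were taken to mean less mRNA with the shPRKCQ hairpin. The lymphoid identity of the lines could be checked only by which markers were tested. Of 13 T cell markers 6 were tested in DMSO and 12 in TPA, against 2 and 5 of 6 B cell, 1 and 3 of 6 myeloid, and 1 and 6 of 7 epithelial or stromal markers, and none passed at an adjusted p under 0.05. Being tested gives no level, so absence of any marker was not assessed. In these bulk samples fewer cells in S phase and less of an mRNA per cell cannot be told apart.

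The promoters of the set were searched for E2F-type words. The choice by name used no sequence, but many of these genes are transcribed under E2F factors. A high share with such a word is therefore no independent finding about the set. E2F factors bind sites of the form TTTCCCGC, TTTGGCGC, TTTCGCGC or TTTGCCGC, and these 8-letter words were searched on both strands, overlaps allowed, in RefSeq windows of 250 bases before to 50 after each gene's start (GRCh38.p14). Of the 59 genes 51 had a window in the RefSeq table; MCM4, MCM5, GINS4, POLD3, RPA2, RPA3, DNA2 and CCNE2 had none. Of their 69 windows 28 held at least 1 word (40.6%), where 3.31% of all 35116 windows did. Counted by gene, 27 of the 51 had a word in any window, against 6.35% of the 11736 genes that were tested in TPA and had a window. Another promoter word, CCAAT, was in 55.1% of the members' windows and 34.6% of all windows. A match describes the letters and is not a shown binding site.

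Stretches of these windows are printed for 9 genes, 5′ to 3′ on the gene's strand, with the E2F-type words in capitals and CCAAT left unmarked, limited to bases before the RefSeq start that lie in no GENCODE exon, and chosen after the values were seen to show low, high and word-rich members. The first 4 are the genes with the lowest TPA values whose stretch held a word: GMNN (chr6:24775293-24775412, plus strand, an intron of GMNN), the E2F family gene E2F2 (chr1:23531234-23531353, minus strand, upstream of the gene), PCNA (chr20:5126627-5126746, minus strand, upstream) and UHRF1 (chr19:4909964-4910083, plus strand, an intron of UHRF1).
GMNN: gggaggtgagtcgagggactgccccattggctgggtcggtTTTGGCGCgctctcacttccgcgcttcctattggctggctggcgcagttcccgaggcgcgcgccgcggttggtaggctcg
E2F2: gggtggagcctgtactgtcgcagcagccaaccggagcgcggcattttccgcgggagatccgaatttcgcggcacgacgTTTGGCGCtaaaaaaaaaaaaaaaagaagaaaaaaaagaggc
PCNA: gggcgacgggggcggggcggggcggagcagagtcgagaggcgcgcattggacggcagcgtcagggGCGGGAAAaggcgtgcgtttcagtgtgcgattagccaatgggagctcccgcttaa
UHRF1: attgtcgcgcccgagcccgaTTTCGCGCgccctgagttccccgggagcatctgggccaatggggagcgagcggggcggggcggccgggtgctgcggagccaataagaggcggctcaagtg
MCM6 (chr2:135876496-135876615, minus strand, upstream of the gene) held the most words of all members, 4 in 2 places where TTTGGCGC overlaps the reverse complement of TTTCGCGC.
MCM6: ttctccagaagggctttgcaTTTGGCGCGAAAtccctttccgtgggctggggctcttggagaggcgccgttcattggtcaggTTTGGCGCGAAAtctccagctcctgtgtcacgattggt
CDC45 (chr22:19479670-19479737, plus strand, an intron of CDC45) and ORC1 (chr1:52404460-52404563, minus strand, upstream) were among the lowest in TPA and had no such word in their windows.
CDC45: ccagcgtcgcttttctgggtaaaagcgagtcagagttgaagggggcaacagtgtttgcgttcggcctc
ORC1: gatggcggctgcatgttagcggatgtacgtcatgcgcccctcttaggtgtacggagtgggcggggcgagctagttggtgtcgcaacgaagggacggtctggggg
ORC4 (chr2:148021685-148021755, minus strand, upstream of ORC4 and in an intron of MBD5 on the other strand) and RPA1 (chr17:1829901-1829970, plus strand, in introns of RPA1 and, on the other strand, SMYD4) had the highest TPA values and also had no word.
ORC4: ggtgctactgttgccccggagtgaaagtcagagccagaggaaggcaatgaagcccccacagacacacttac
RPA1: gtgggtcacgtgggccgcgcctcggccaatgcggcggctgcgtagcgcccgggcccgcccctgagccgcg

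With vehicle, the replication genes had values scattered on both sides of 0. Their median log2 fold change was -0.014 (lowest -0.22, highest 0.22), computed from the authors' deposited table, beside 0.0075 over all 13007 genes tested. Values below 0 were held by 34 of 59 genes (57.6%), where 47.7% of all genes were below 0. MCM5 was the only member below -0.2, where 9.1% of all genes were, and MCM10 the only one above 0.2, where 8.64% were. In DMSO 0 of 59 genes passed at an adjusted p under 0.05, against 0.108% of all genes, and 0 of 59 had an unadjusted p under 0.05, against 3.04% of all genes. The smallest unadjusted p among them was 0.282, that of MCM6.

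Under TPA most replication genes had lower values than in DMSO, and no single gene passed. The median was -0.18 (lowest -0.43, highest 0.11), computed from the authors' deposited table, beside 0.011 over all 19417 genes tested. Over the 13007 genes also tested in DMSO, the TPA median was 0.0017 and 49.3% of values were negative. The shares that follow are over all 19417 and so over more genes than those given for DMSO. Of the 59 genes 54 were negative, where 47% of all genes were, and 27 were below -0.2, where 13.1% of all genes were; 0 were above 0.2, where 17.2% of all genes were. In TPA 0 of 59 genes passed at an adjusted p under 0.05, against 0.113% of all genes, and 0 had an unadjusted p under 0.05, against 3.99%. The smallest unadjusted p was 0.0887, that of RPA2. These counts describe the set and are no test of it, because all genes were measured in the same libraries.

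**Figure D1:**
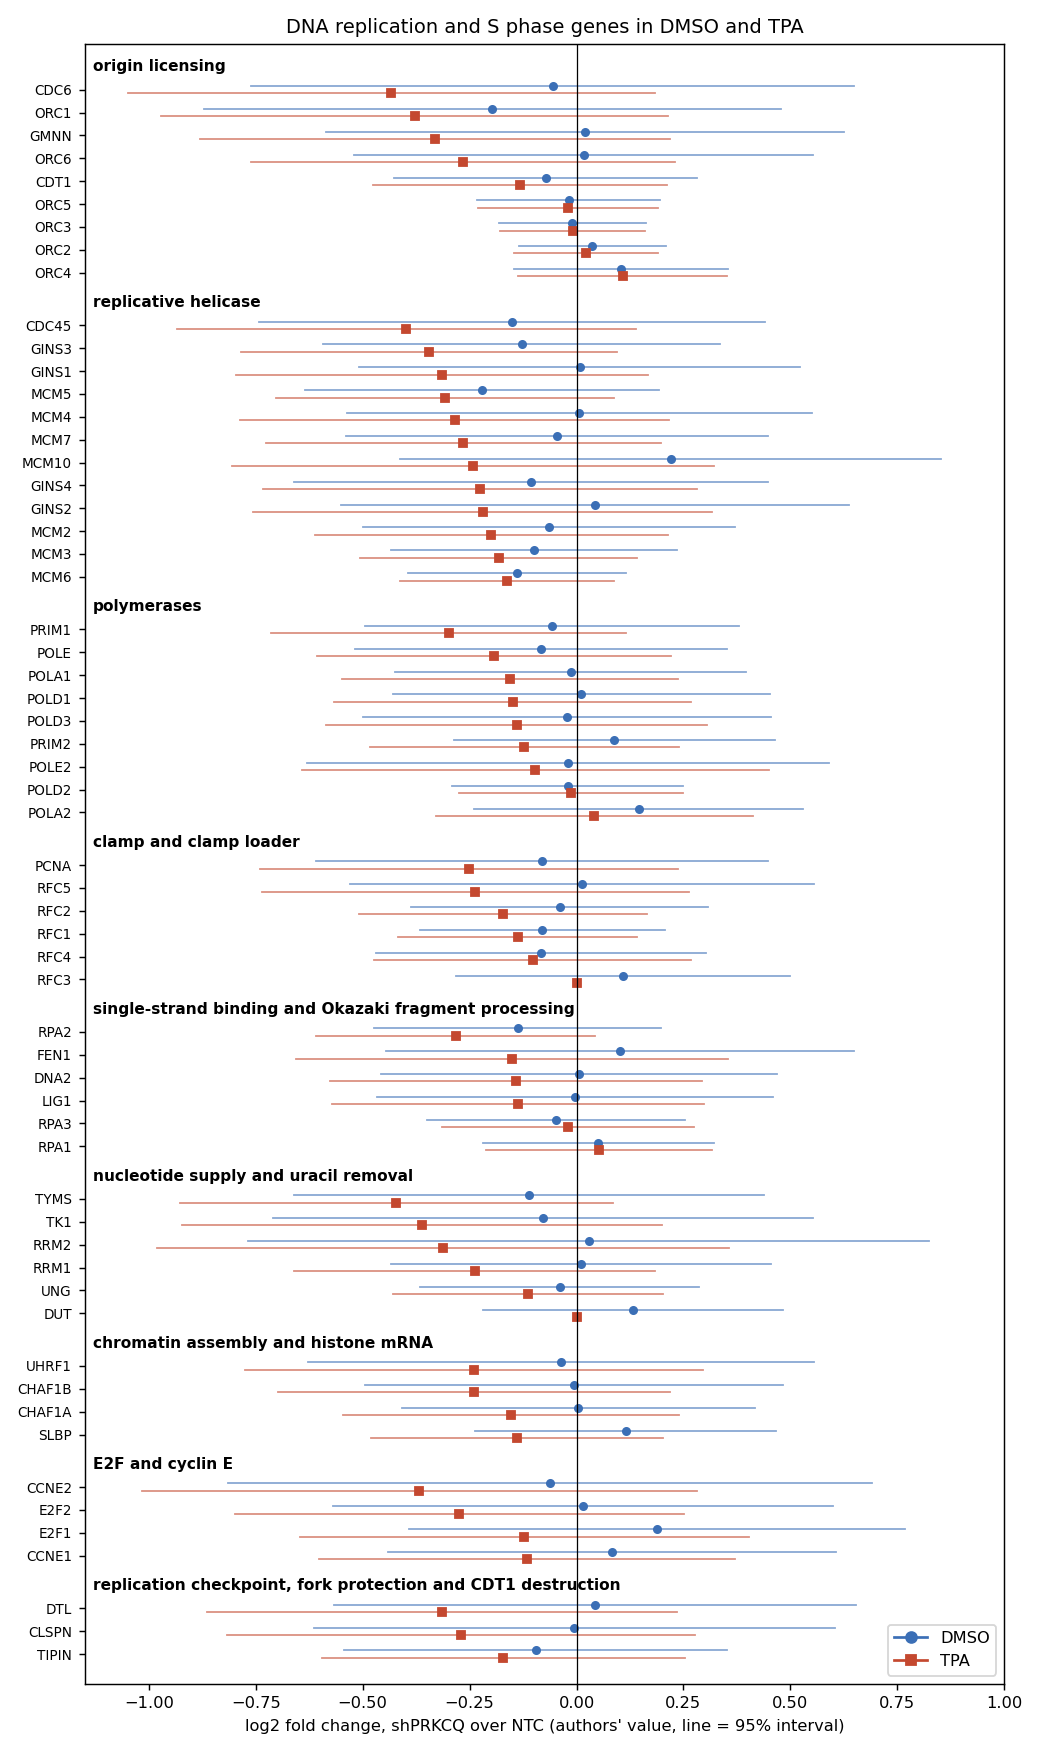
Log2 fold change of shPRKCQ over NTC for the 59 genes by role, blue circles for DMSO and red squares for TPA, from the authors' deposited tables; lines are 95% intervals from implied standard errors, left out for RFC3 and DUT in TPA. Every interval drawn crosses 0, while 54 of the 59 TPA values are negative.

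How precise each value is follows from the standard error implied by the fold change and its p-value. These errors ran from 0.087 to 0.41 in DMSO and from 0.086 to 0.34 in TPA, with medians of 0.24 and 0.22, beside medians of 0.17 in both tables over all genes they share. RFC3 and DUT were so close to 0 in TPA that no error could be computed. All 59 intervals in DMSO and 55 of 57 in TPA excluded a halving, a log2 fold change of -1; CDC6 and CCNE2 were the exceptions, with lower bounds of -1.05 and -1.02. All 59 and all 57 excluded a doubling. These errors and bounds take each p-value to belong to the deposited fold change. If fold changes were altered after the p-values were computed, they would not apply, and this is not given. At best the TPA bounds hold on the scale of the deposited values, and whether the tables share a common scale is not given. A rescaling of the TPA values put the lowest, CDC6, at -0.57, so on that scale further members could reach a halving. The bounds differ by gene, with the smallest standard error at ORC2 and the largest at RRM2.

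Under TPA some origin licensing genes had values near 0 and others below it, though their intervals overlapped and differences between them were not tested. ORC2, ORC3, ORC4 and ORC5, core subunits of the origin recognition complex, were at 0.02, -0.01, 0.11 and -0.02 in TPA and at 0.04, -0.01, 0.10 and -0.02 in DMSO, per the authors' deposited tables. The 4 values moved little between the treatments; 7 of the 59 genes moved by less than 0.02, where 12.3% of all genes did, so such small moves were as common among all genes. ORC1, the subunit whose amount changes through the cell cycle, had values of -0.20 (DMSO) and -0.38 (TPA), and ORC6 of 0.02 and -0.27, per the authors' deposited tables (unadjusted p = 0.21 and 0.294 in TPA). CDC6, the loader that brings MCM rings to the origin complex, had the lowest TPA value of all 59 genes, -0.43 or 74.1% of NTC (interval -1.05 to 0.18), and was at -0.06 in DMSO, per the authors' deposited tables. GMNN, the inhibitor of relicensing, had values of 0.02 (DMSO) and -0.33 (TPA), and CDT1, its target, of -0.07 and -0.13, per the authors' deposited tables. CDC6 (ENSG00000094804.10) lies on chr17:40287633-40304657, plus strand, in GENCODE release 29 on GRCh38, the build of the submitters' notes. None of these genes passed in either treatment.

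All 12 genes of the replicative helicase were negative in TPA, from -0.40 to -0.16 with a median of -0.25, and 8 of 12 were negative in DMSO with a median of -0.08, computed from the authors' deposited tables. The ring subunits MCM2 to MCM7 lay in TPA at -0.20, -0.18, -0.28, -0.31, -0.16 and -0.26 in that order, per the authors' deposited table. MCM5 was also the lowest of all 59 genes in DMSO at -0.22, and MCM6 was nearly equal in both treatments at -0.14 and -0.16, per the authors' deposited tables. CDC45, which joins the ring to form the active helicase, was at -0.15 in DMSO and -0.40 in TPA, per the authors' deposited tables. The GINS subunits GINS1, GINS2, GINS3 and GINS4 were at -0.31, -0.22, -0.34 and -0.22 in TPA and at 0.01, 0.04, -0.13 and -0.11 in DMSO, per the authors' deposited tables. MCM10, which binds the helicase and polymerase alpha, lay on opposite sides of 0: it was the highest gene of the set in DMSO at 0.22 and stood at -0.24 in TPA, per the authors' deposited tables.

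Of 9 polymerase and primase genes, 8 were negative in TPA at a median of -0.14 and 6 were negative in DMSO at -0.02, computed from the authors' deposited tables. The lowest in TPA was PRIM1, the catalytic primase subunit, at -0.30 (unadjusted p = 0.158), a gene that overlaps NACA on its own strand, and the highest POLA2, a subunit of polymerase alpha, at 0.04, per the authors' deposited table. POLA2 was also the highest polymerase gene in DMSO at 0.15, and POLE, the catalytic subunit of polymerase epsilon, the lowest at -0.08, per the authors' deposited table. The catalytic subunits POLA1, POLD1 and POLE had TPA values of -0.15, -0.15 and -0.19, per the authors' deposited table, while POLD2, an accessory subunit of polymerase delta, was at -0.01. PCNA, the clamp that holds polymerases on DNA, was at -0.08 in DMSO and -0.25 in TPA, per the authors' deposited tables. Among its loader subunits RFC5 was the lowest in TPA at -0.24 and RFC3 lay at 0.00093, per the authors' deposited table, with RFC1, RFC2 and RFC4 between -0.17 and -0.10.

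The 3 subunits of replication protein A, which coats single-stranded DNA, had unequal values in TPA, though the differences between subunits were not tested. RPA2 was at -0.28 (interval -0.61 to 0.04), RPA1 at 0.05 and RPA3 at -0.02, per the authors' deposited table. In DMSO the same subunits were at -0.14, 0.05 and -0.05, per the authors' deposited table. FEN1, LIG1 and DNA2, which trim and join Okazaki fragments, were at -0.15, -0.14 and -0.14 in TPA and at 0.10, -0.0035 and 0.0056 in DMSO, per the authors' deposited tables.

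Nucleotide enzymes included some of the lowest TPA values. TYMS, which makes thymidylate, was at -0.42 or 74.7% of NTC (interval -0.93 to 0.08, unadjusted p = 0.103), and TK1, thymidine kinase of the salvage pathway, at -0.36, per the authors' deposited table. Their DMSO values were -0.11 and -0.08, per the authors' deposited table. RRM1 and RRM2, the subunits of ribonucleotide reductase, were at 0.01 and 0.03 in DMSO and -0.24 and -0.31 in TPA, per the authors' deposited tables. TYMS overlaps ENOSF1 and TYMSOS on the other strand, and whether the counting used strand is not given. RRM2 had the largest standard error of the set in both treatments, 0.41 and 0.34. DUT, which destroys dUTP, had values of 0.13 (DMSO) and -2.15e-05 (TPA), and UNG, the uracil glycosylase, of -0.04 and -0.11, per the authors' deposited tables.

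The chromatin and regulatory genes lay between -0.10 and 0.19 in DMSO and were all negative in TPA. CHAF1A and CHAF1B, subunits of the histone chaperone CAF-1, were at -0.15 and -0.24 in TPA, UHRF1, which brings the maintenance DNA methyltransferase to replicated DNA, at -0.24, and SLBP, the histone mRNA binding protein, at -0.14, per the authors' deposited table. SLBP was the highest of these 4 in DMSO at 0.12 and UHRF1 the lowest at -0.04, per the authors' deposited table. E2F1, an activator of the G1/S programme, had values of 0.19 (DMSO) and -0.12 (TPA), and E2F2 of 0.01 and -0.27, per the authors' deposited tables. CCNE1 and CCNE2, the E cyclins that activate CDK2, were at 0.08 and -0.06 in DMSO and -0.12 and -0.37 in TPA, per the authors' deposited tables. DTL, which directs CDT1 to destruction, was at 0.04 and -0.31, the checkpoint adaptor CLSPN at -0.01 and -0.27, and the fork protection factor TIPIN at -0.10 and -0.17 in DMSO and TPA, per the authors' deposited tables. None of these 11 genes passed in either treatment.

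The knockdown effects in the 2 treatments were then compared gene by gene, as the difference of the log2 fold changes over their combined standard error. Whether the authors shrank the fold changes of either table is not given, and the members' TPA standard errors were 0.841 to 0.988 of those in DMSO. Their inverse squared standard errors were higher in TPA by 1.94 to 3.70 (median 2.28), so the tables may differ in scale, and a difference between them may then mix treatment with scale. Of the 59 genes 54 had a lower value in TPA than in DMSO (91.5%), where 52.5% of the 13007 genes in both tables did, and 26 were lower by more than 0.2, where 9.23% of all were. The median difference was -0.16 over the 59 genes and -0.0084 over all genes. By role the median difference was -0.30 for E2F and cyclin E genes, -0.27 for nucleotide genes, -0.22 for helicase genes, -0.12 for polymerases and -0.06 for origin licensing genes. No gene's difference passed: 0 of 57 testable members and 0 of 12746 genes (0% called) at an adjusted p under 0.05 (difference test on the authors' values, Benjamini-Hochberg). At an unadjusted p under 0.05 there were 0 of 57, against 0.447% of all genes. That share is far below the fraction of 0.05 that would fall there if no gene differed, so the test rarely called any gene. The absence of calls among the members therefore does not show equal effects in the 2 treatments.

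The 5 genes with the smallest p for the difference were MCM10, SLBP, GINS1, DTL and GMNN. The estimate was -0.46 for MCM10 (interval -1.31 to 0.38, unadjusted p = 0.285, adjusted p = 0.999958) and -0.25 for SLBP (interval -0.74 to 0.24, unadjusted p = 0.309). It was -0.32, -0.36 and -0.35 for GINS1, DTL and GMNN, with unadjusted p of 0.372, 0.393 and 0.401. Every one of these intervals spans 0 and also reaches falls larger than the estimate, so for single genes neither equality nor a difference was shown. In all, 20 of the 59 genes were positive in DMSO and negative in TPA (33.9%), where 18.7% of all genes were. A further 34 were negative in both, where 30.6% of all were, and 5 were positive in both, where 33.6% of all were. The remaining sign pattern, negative in DMSO and positive in TPA, was held by 0, where 17.1% of all were. Some of these signs belong to values near 0, such as CHAF1A at 0.0042 in DMSO and DUT at -2.15e-05 in TPA. The counts of signs therefore do not show that the effect on any gene reversed. Across the 59 genes, which share their libraries and are not independent, Pearson's r between the treatments was 0.47 and Spearman's rho 0.41, beside 0.38 and 0.40 over the 13007 genes of both tables.

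**Figure D2:**
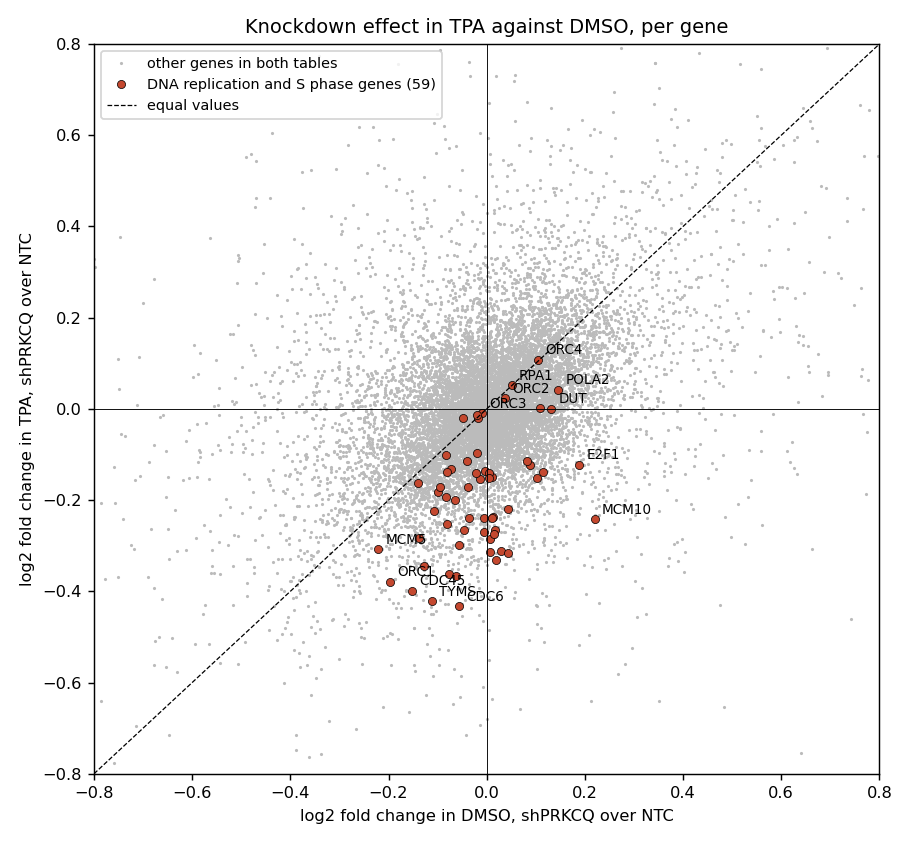
Log2 fold change of shPRKCQ over NTC in TPA (vertical) against DMSO (horizontal) for the 59 replication genes (red) and the other genes in both tables (grey), with the line of equal values; genes beyond 0.8 on either axis are not drawn. Of the red points 54 lie below the line, and ORC2, ORC3, ORC4 and RPA1 lie on or next to it.

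**Figure D3:**
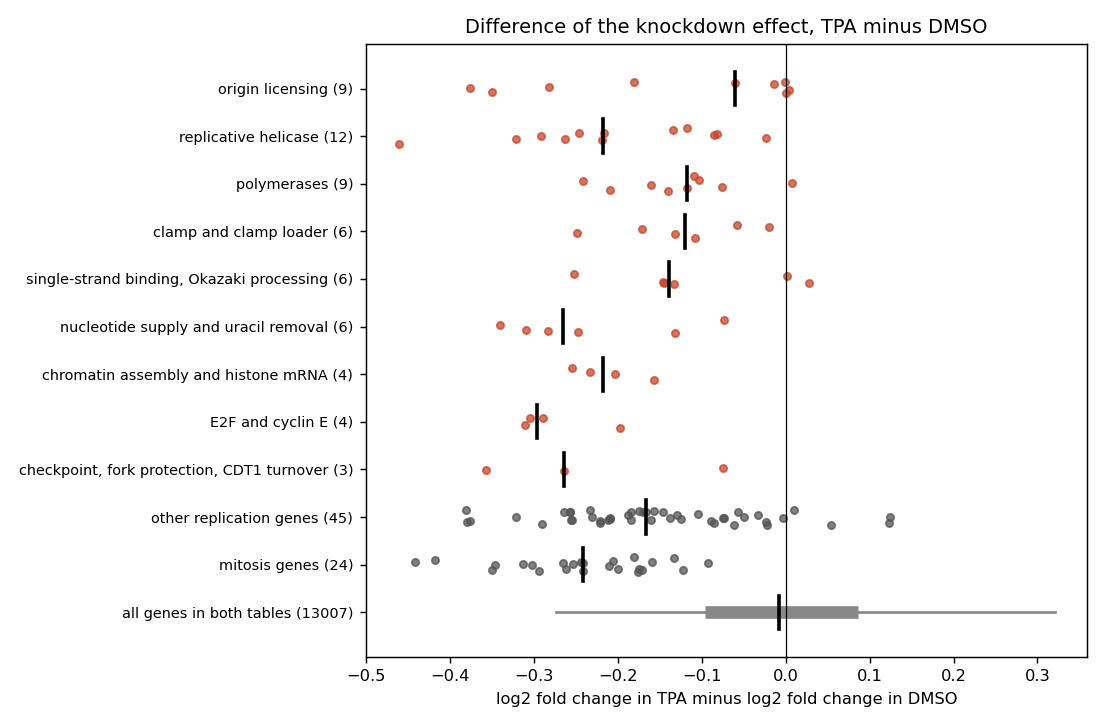
Difference of log2 fold changes, TPA minus DMSO, for each replication gene by role (red) and for 2 further lists (grey), with black bars at the medians; for all genes the thick bar covers the middle 50% and the thin line the 5th to 95th percentile. Medians run from -0.30 for E2F and cyclin E genes to -0.06 for origin licensing genes, beside -0.0084 for all genes.

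Within the set, the TPA values left a gap. The 10 genes ORC2, ORC3, ORC4, ORC5, RPA1, RPA3, POLD2, POLA2, RFC3 and DUT lay between -0.020 and 0.11 and the other 49 between -0.43 and -0.097, computed from the authors' deposited table; this split was made after the values were seen and has no test. The 10 had small standard errors, with a median of 0.14 in DMSO, against 0.25 for the 49. Across all 59 genes the DMSO standard error and the TPA value had a Spearman rho of -0.71, while the DMSO standard error and the DMSO value had one of 0.023. Over the genes of both tables with a TPA standard error, 12863 in number, the TPA error and TPA value had a rho of 0.061. Members with a larger standard error thus lay further below 0 in TPA but not in DMSO. The points share their libraries, and these are descriptions with no p.

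**Figure D4:**
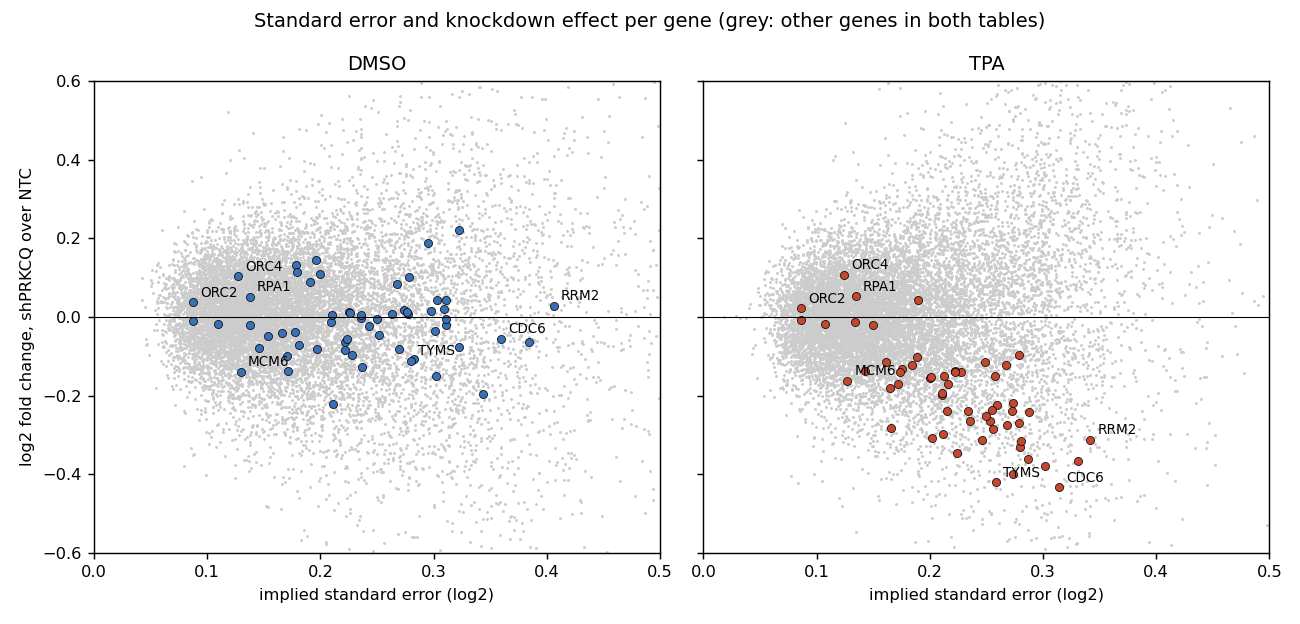
Log2 fold change of shPRKCQ over NTC (vertical) against the implied standard error (horizontal) in DMSO (left, blue) and TPA (right, red) for the replication genes, RFC3 and DUT missing on the right; grey points are other genes in both tables, those beyond the axes not drawn. The right panel slopes down from ORC2 and ORC4 to CDC6 and RRM2, and the left panel stays around 0.

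Genes with and without a promoter word overlapped in their TPA values. The 27 genes with an E2F-type word had a median of -0.19 in TPA and the 24 without one a median of -0.15, computed from the authors' deposited table. Of these, 12 and 10 were below -0.2. Both groups spanned nearly the whole range, from -0.43 to 0.04 with a word and from -0.40 to 0.11 without. ORC1, CDC45 and TK1 were low without a word, and ORC3, RFC3 and POLA2 lay near 0 with one.

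Further genes of the same pathway were listed separately. A list of 45 other replication and G1/S genes had 39 negative values in TPA with a median of -0.19, and 18 negative in DMSO with a median of 0.03 but a mean of -0.01, computed from the authors' deposited tables. None of the 45 passed at an adjusted p under 0.05 in either treatment, against 0.108% of all genes in DMSO and 0.113% in TPA. An unadjusted p under 0.05 was held by 0 of 45 in DMSO and 1 of 45 in TPA, against 3.04% and 3.99% of all genes. The genes with the smallest p in TPA were E2F3, an activating E2F factor, at -0.22 (unadjusted p = 0.0291), and DCK, deoxycytidine kinase, at -0.19, per the authors' deposited table. In DMSO they were the histone chaperone gene ASF1A at 0.11 and TOPBP1, a scaffold of helicase activation, at -0.13, per the authors' deposited table. Mitosis genes, used for comparison, had 22 of 24 negative in TPA at a median of -0.16 and 2 of 24 negative in DMSO at 0.13, and none passed. TOP2A and AURKB were at -0.25 and -0.26 in TPA, and AURKA and BUB1 at 0.18 and 0.24 in DMSO, per the authors' deposited tables. All 24 mitosis genes were lower in TPA than in DMSO, with a median difference of -0.24, beside -0.16 for the 59 replication genes; the difference between these lists was not tested.

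Cell type markers, none of which passed, also had values away from 0, and their part in the replication values was not tested. T cell markers had 11 of 12 positive values in TPA, with a median of 0.20, and 4 of 6 in DMSO, with 0.11. CD5 and CD7 were at 0.56 and 0.69 in TPA (unadjusted p = 0.0167 and 0.0647), and CD3G and TRBC1 at 0.22 and 0.40 in DMSO, per the authors' deposited tables. Among B cell markers the median was 0.12 in DMSO and 0.07 in TPA, where CD79B was at -1.10 (unadjusted p = 0.000773) and MS4A1 at 0.32; in DMSO CD79A was at 0.36 and BLK at -0.13, per the authors' deposited tables. The tested myeloid markers lay between -0.02 and 0.32 and the epithelial or stromal ones between -1.02 (PDGFRB, unadjusted p = 0.00634) and 0.77 (KRT5, unadjusted p = 0.0437) in TPA; ITGAM and COL1A1 were the only ones tested in DMSO, at 0.11 and 0.31, per the authors' deposited table.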

How the data were processed

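Per the labels' protocols, the 24 libraries were stranded and poly(A)-selected, with unique molecular identifiers in their adaptors. STAR 2.5.3a, RSEM 1.3.0, DESeq2 1.18.1 and GRCh38 are named in the submitters' processing notes, without roles. The model, the use of strand and identifiers and any shrinkage are not given in the sources read. The authors deposited a log2 fold change per gene and a p-value with its adjusted p-value per gene, per the file headers. Of the 59 genes 16 overlap another annotated gene on the same strand and 27 on the opposite strand (GENCODE release 29), so some reads could be shared.

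Calls used the authors' adjusted p under 0.05. Dividing each fold change by the z-value of its p-value gave the implied standard error, where z was at least 0.01 in size; intervals are 1.96 standard errors (95%). Differences between treatments took the tables as independent, with a normal two-sided p and Benjamini-Hochberg adjustment over 12746 genes. Whether the tables are independent, and whether the method finds differences of the members' size, was not tested. Python 3.11.15 ran pandas 2.3.3, scipy 1.17.1, numpy 2.4.6 and matplotlib 3.10.9. The series' design text calls replicates independent without naming cultures, so p-values measure the spread between these libraries, which may be technical. Each arm pools both lines, and whether the model had a term for line is not given. Without such a term, that spread would also hold the difference between the lines. The alternatives changed thresholds, adjustment, centring and the members counted. The genes and lists were chosen with earlier results of these data known. Values were named for the lowest and highest gene of each role, the 5 smallest p-values of the difference and the 2 smallest p-values of each further list; other members are named by role. No member met the p-value rule set for printing sequences, so another was used.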

Additional observations from a re-analysis of the deposited data

How the results depend on the processing

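The counts of called members stayed 0 in DMSO, in TPA and for the difference under every alternative run: an adjusted p under 0.1, an unadjusted p under 0.05, adjustment over all genes or over genes in both tables, a minimum fold change, a difference of z-values, centred tables and no minimum size of z. The median in TPA ran from -0.15 in members without an E2F-type promoter word to -0.21 after rescaling, and the DMSO median from -0.021 after centring to 0.011 in members without such a word, where its sign changed. Against the median of all genes, 38 of 59 members were lower in DMSO and 55 in TPA. The TPA standard errors of members were 0.841 to 0.988 of those in DMSO, and whether the tables share 1 scale is not given. TPA values were therefore also multiplied by the squared ratio of the DMSO to the TPA standard error. This rescaling put the median at -0.21 and the lowest at -0.57. With it 0 members passed in the difference test (smallest unadjusted p = 0.25). Of all genes 2 then passed and 111 had an unadjusted p under 0.05, against 0 and 57 without it. That rescaling, the minimum size of z, the looser threshold for the difference, and the subsets by promoter word and without origin licensing genes were chosen after seeing the data. Leaving out replicates and other normalizations were not run, and depth is unknown. No paired analysis was possible because single libraries have no values here.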
